A study of Mus musculus with 6 samples.

Results

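The transcripts of 40 genes that drive DNA replication and mitosis were followed in skin wounds of diabetic mice. Of these, 16 act at the start of or during S phase (the DNA synthesis phase) and 24 act in G2 phase or mitosis (G2/M). The genes were taken by name as known S phase and mitosis genes. The rule used no measured value, but earlier results of these data were known when the list was made. All 40 were found among the 33184 gene IDs of the deposited table, and all 40 were among the 16005 genes that averaged 0.5 FPKM or more and entered the test. FPKM stands for fragments per kilobase of a gene relative to all mapped fragments and so corrects for its length, which lets levels of different genes stand side by side. Here the mates of a read pair appear to have been counted singly.

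The mice were db/db of the C57BL/Ks strain, which lack a working leptin receptor and become obese and diabetic, and their age and sex are not given in the sources used here. A round full-thickness wound of 0.6 cm was cut in the dorsal skin. At dpi1 (1 day post-injury), the wound edge was injected with siRNA, either the control NC-siRNA or SFRP2-siRNA, directed against the secreted Wnt modulator Sfrp2. Whole wound tissue was frozen at dpi4 and its RNA was sequenced. There were 3 NC libraries and 3 libraries with the label SFRP2-siRNA. The titles carry day 3, and the day they count from is not stated. They call the treated wounds siRNA-1, siRNA-2 and siRNA-3, which may be different siRNA sequences or plain replicates, and they were taken as replicates. No label says that each library is a separate animal, so the p-values measure only the spread between these libraries. The siRNA was not directed to a cell type, and the tissue holds epidermis, hair follicles, granulation tissue, fat and muscle together. In such bulk tissue, a higher level can come from more dividing cells or from more RNA per dividing cell, and these cannot be told apart.

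Before S phase a cell raises cyclin E, whose kinase partner helps E2F transcription factors switch on the replication genes. The MCM proteins are loaded onto origins as the replicative helicase, and nucleotide synthesis enzymes supply the building blocks. Later, cyclin A and cyclin B with the kinase CDK1 bring the cell into mitosis, where Aurora and Polo kinases, motors and the spindle checkpoint separate the chromosomes. In skin, the dividing cells are mainly basal keratinocytes and the hair matrix, and after wounding also fibroblasts, endothelial cells and leukocyte precursors.

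Both classes are known for different promoter elements. S phase genes often hold E2F sites, while G2/M genes often hold a cell cycle genes homology region (CHR) next to CCAAT boxes, which bind NF-Y. Promoters from RefSeq (GRCm38.p6), 250 bases before to 50 bases after each start, were given for 32 of the 40 genes, 13 of S phase and 19 of G2/M. The genes with no entry were Kif20a, Aurkb, Tpx2, Ccna2, Foxm1, Ccne2, Gins2 and Mcm4. Exact matches were sought on both strands to the CHR letters TTTGAA, to CCAAT, and to the E2F words TTTCGCGC and TTTGGCGC as well as TTTCCCGC and TTTGCCGC. The E2F words can overlap each other on opposite strands. A CHR match was present in 14 of 19 G2/M promoters (73.7%), in 1 of 13 S phase promoters (7.69%), that of Mcm2, and in 18.1% of all 27025 promoters in the table. The 5 G2/M promoters with no such letters in the window were those of Nusap1, Bub1, Cenpe, Birc5 and Ccnb1. An E2F word was present in 6 of 13 S phase promoters (46.2%), those of Mcm3, Mcm5, Mcm6, Mcm7, Cdc6 and Cdt1. The same words stood in 1 of 19 G2/M promoters (5.26%), that of Cdk1, and in 2.32% of all promoters. CCAAT was found in 89.5% of the G2/M and 69.2% of the S phase promoters, against 37.9% of all. A match is a description of the letters and not a bound site.

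Of these promoters, 7 are shown so that the elements of both classes can be seen beside their levels: 4 of G2/M genes with CHR and CCAAT, and 3 of S phase genes with E2F words. Each line gives the 160 bases before the annotated start, 5′ to 3′ on the strand of the gene, in GRCm38.p6 coordinates. Capitals mark the CHR, CCAAT and E2F letters on either strand, and 2 overlapping words form a single run.
Cdk1 (chr10:69352913-69353072, minus strand): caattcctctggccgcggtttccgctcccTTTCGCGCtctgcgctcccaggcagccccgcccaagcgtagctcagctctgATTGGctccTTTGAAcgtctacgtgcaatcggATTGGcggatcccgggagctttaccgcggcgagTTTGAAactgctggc
Cdc20 (chr4:118437344-118437503, minus strand): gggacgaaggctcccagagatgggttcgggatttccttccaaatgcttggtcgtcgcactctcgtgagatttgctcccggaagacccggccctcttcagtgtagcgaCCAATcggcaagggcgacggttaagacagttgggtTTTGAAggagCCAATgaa
Ube2c (chr2:164769769-164769928, plus strand): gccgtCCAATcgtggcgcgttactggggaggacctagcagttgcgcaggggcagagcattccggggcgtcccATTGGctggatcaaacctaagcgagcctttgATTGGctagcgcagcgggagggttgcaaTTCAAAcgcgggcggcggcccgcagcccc
Kif11 (chr19:37376222-37376381, plus strand): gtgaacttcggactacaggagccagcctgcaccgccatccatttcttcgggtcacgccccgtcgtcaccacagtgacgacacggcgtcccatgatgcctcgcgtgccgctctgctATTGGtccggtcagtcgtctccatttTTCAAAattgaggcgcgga
Mcm5 (chr8:75109349-75109508, plus strand): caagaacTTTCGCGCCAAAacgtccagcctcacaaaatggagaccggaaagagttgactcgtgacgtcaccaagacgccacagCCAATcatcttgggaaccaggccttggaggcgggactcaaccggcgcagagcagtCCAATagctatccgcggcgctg
Mcm6 (chr1:128359706-128359865, minus strand): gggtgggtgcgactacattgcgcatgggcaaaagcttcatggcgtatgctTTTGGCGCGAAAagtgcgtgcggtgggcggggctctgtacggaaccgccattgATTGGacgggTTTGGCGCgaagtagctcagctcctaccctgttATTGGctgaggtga
Cdc6 (chr11:98907991-98908150, plus strand): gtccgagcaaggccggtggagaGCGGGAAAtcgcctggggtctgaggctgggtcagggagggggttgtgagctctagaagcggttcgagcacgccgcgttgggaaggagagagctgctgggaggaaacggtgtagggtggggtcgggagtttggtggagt
The Cdk1 promoter holds both kinds of element, and its CHR letters occur 2 times. In Mcm5 and Mcm6, E2F words on opposite strands overlap, and the Mcm6 window holds one more, closer to the start.

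Totals implied by the FPKM values were 42.9 to 47.1 M reads a library (M for mega), with 26081 to 27189 genes above 0. Transcripts of the mitochondrial protein genes took 16.8% to 34.5% of the summed FPKM in the NC libraries, with 34.5% in NC 1, and 11.5% to 15.9% in the others. Over all genes tested the median log2 fold change was 0.13, so genes as a whole were listed slightly higher in the libraries labelled SFRP2-siRNA. With median-of-ratios scaling, which equalises the typical gene, that median was 0.005. The siRNA target itself, Sfrp2 (ENSMUSG00000027996), was listed at 11.6, 40.6 and 14.1 FPKM in NC 1, 2 and 3, below the 50.6, 54.6 and 55.2 FPKM of SFRP2-siRNA 1, 2 and 3. Its log2 fold change was 1.45 (SE 0.43, adjusted p = 0.518, limma). The target thus goes against the label, so SFRP2-siRNA stands below for the libraries that carry this label, and no direction refers to a loss of Sfrp2. The skin markers Krt14, a basal keratin (1571 to 3930 FPKM), and Col1a1, a collagen chain (254 to 755 FPKM), were abundant in every library.

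All 40 genes had a higher mean of log2(FPKM + 1) in SFRP2-siRNA, a direction shared by 71.8% of all genes tested. The differences were small. Log2 fold changes ran from 0.06 for Ube2c to 0.40 for Aurkb, and the ratio of the mean FPKM values had a median of 1.24 over the 40 genes. None of the 40 genes passed the threshold (adjusted p under 0.05 and absolute log2 fold change above 1, limma), and the same was true of all 16005 genes (0%). Adjusted p-values of the 40 genes lay between 0.518 and 0.926. At an unadjusted p under 0.05 there were 5 of 40 genes, all of them higher in the libraries labelled SFRP2-siRNA, against 6.72% of all genes in that direction and 2.86% in the other. These were Cdk1, Aurkb, Mcm3, Birc5 and Ttk. Limma voom on reads recovered from the FPKM values also called 0 of the 40 genes after adjustment, with 5 at an unadjusted p under 0.05 (6.72% of all genes in the higher direction). The limma count depended on single libraries. It was 11 without NC 3 (5.74% of all genes in the higher direction), 2 without NC 1 (2.87%) and 2 without SFRP2-siRNA 1 (5.56%). It was 1 without SFRP2-siRNA 2 (3.75%), and 0 without NC 2 (9.78%) or without SFRP2-siRNA 3 (6.87%).

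NC and SFRP2-siRNA were fully apart for 12 of the 40 genes, all higher in the libraries labelled SFRP2-siRNA, against 13.9% of all genes in that direction. In the other direction there were 0 of 40, against 3.92% of all genes. For each of the 12 genes the exact two-sided permutation test gave p = 0.1, its lower limit with 3 libraries a group. They were Mcm3, Mcm4, Mcm6, Cdc6, Cdt1 and Gins2 of S phase and Cdk1, Ccnb2, Aurkb, Birc5, Plk1 and Ttk of G2/M. For most genes it was NC 3 that closed the gap, since it exceeded the lowest SFRP2-siRNA library for 28 of the 40 genes. Without NC 3 the groups did not overlap for 36 of 40 genes (29% of all genes), and without SFRP2-siRNA 1 for 24 of 40 (23.7% of all genes). For 34 of 40 genes the difference between the groups was smaller than the range of the 3 NC libraries, which held for 83.3% of all genes.

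**Figure D1:**
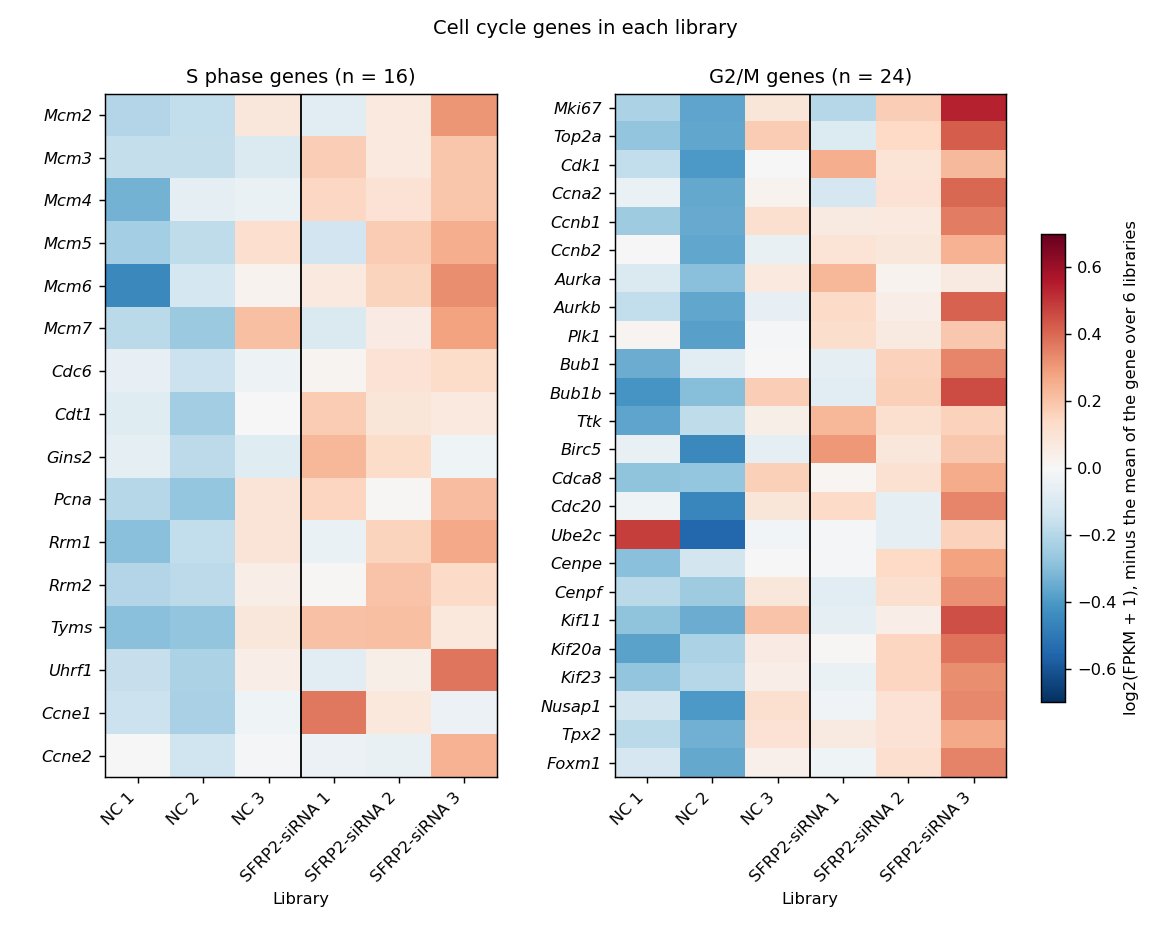
Each cell is log2(FPKM + 1) of a gene in a library minus the mean of that gene over the 6 libraries, with 16 S phase genes on the left and 24 G2/M genes on the right and a line between the NC libraries and those labelled SFRP2-siRNA. NC 1 and NC 2 are low for most genes, SFRP2-siRNA 3 is the highest library for 30 of 40 genes, and Ube2c in NC 1 stands out as high.

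The 6 subunits of the MCM2-7 helicase, the motor that opens DNA at the fork, were all well expressed, with mean levels from 7.33 FPKM for Mcm2 to 17.1 FPKM for Mcm5. In the values that follow, libraries stand in the order 1, 2, 3 in each group. Mcm2 (ENSMUSG00000002870) had 6.18, 6.33 and 7.75 FPKM in NC and 6.83, 7.68 and 9.24 FPKM in SFRP2-siRNA. The groups overlapped, with a log2 fold change of 0.20 (SE 0.15). Mcm3 (ENSMUSG00000041859) had 11.3, 11.3 and 11.9 FPKM in NC and 14.6, 13.5 and 14.8 FPKM in SFRP2-siRNA. Here the NC libraries lay close together and below every other library, and the log2 fold change was 0.29 (SE 0.11, adjusted p = 0.518, limma). Mcm4 (ENSMUSG00000022673) had 10.9, 13.4 and 13.5 FPKM in NC and 15.6, 15.1 and 16.2 FPKM in SFRP2-siRNA. Its groups did not overlap either, at a log2 fold change of 0.29 (SE 0.13). Mcm6 (ENSMUSG00000026355) had 10.7, 13.7 and 15.3 FPKM in NC and 15.8, 16.8 and 19.0 FPKM in SFRP2-siRNA. It was the S phase gene with the greatest log2 fold change, 0.37 (SE 0.16), although NC 3 lay only just under SFRP2-siRNA 1. Mcm5 (15.8 ± 2.27 against 18.3 ± 2.65 FPKM; SD, n = 3 each) and Mcm7 (13.3 ± 2.61 against 14.9 ± 2.16 FPKM) overlapped between the groups. The ratio of Mcm5 to Mcm2 levels stayed between 2.21 and 2.51 in all 6 libraries.

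The licensing and helicase activation genes were expressed at lower levels. Cdc6, which loads MCM with the origin recognition complex, had 1.62 ± 0.11 FPKM in NC and 1.94 ± 0.11 FPKM in SFRP2-siRNA (SD, n = 3 each). Cdt1, its partner in loading, had 5.96 ± 0.586 and 7.09 ± 0.327 FPKM, and Gins2, a subunit of the active helicase, had 2.40 ± 0.153 and 2.97 ± 0.362 FPKM. The groups did not overlap for any of the 3 genes, and log2 fold changes were 0.17, 0.22 and 0.22. SFRP2-siRNA 3, the highest library for most of the 40 genes, was the lowest of its group for Gins2 (2.59 FPKM) and Cdt1 (6.85 FPKM).

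Pcna (ENSMUSG00000027342), the sliding clamp of the replication fork, was the most abundant of the 40 transcripts. It had 43.2, 41.1 and 53.05 FPKM in NC and 55.3, 50.1 and 57.8 FPKM in SFRP2-siRNA. NC 3 lay above SFRP2-siRNA 2, so the groups overlapped (log2 fold change 0.25, SE 0.16). Uhrf1, which carries DNA methylation through replication, had 12.7 ± 1.38 and 15.2 ± 2.70 FPKM (SD, n = 3 each), and only SFRP2-siRNA 3, at 18.2 FPKM, stood clear of the NC libraries.

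Of the nucleotide synthesis genes, Tyms (ENSMUSG00000025747), the thymidylate synthase, had 2.38, 2.43 and 3.39 FPKM in NC and 3.78, 3.80 and 3.37 FPKM in SFRP2-siRNA. NC 3 and SFRP2-siRNA 3 were nearly equal, and the log2 fold change was 0.33 (SE 0.14). Rrm1 and Rrm2, the large and small subunits of ribonucleotide reductase, had log2 fold changes of 0.25 (SE 0.15) and 0.23 (SE 0.13). Rrm2 was listed 1.98 to 2.38 times as high as Rrm1 in every library.

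The 2 cyclin E genes, which act at entry into S phase, were high in different libraries. Ccne1 (ENSMUSG00000002068) had 3.96, 3.71 and 4.40 FPKM in NC and 6.10, 4.80 and 4.36 FPKM in SFRP2-siRNA. SFRP2-siRNA 1 was high and SFRP2-siRNA 3 lay within the NC range, at a log2 fold change of 0.27 (SE 0.15). Ccne2 (ENSMUSG00000028212) had 3.40, 2.998 and 3.37 FPKM in NC and 3.27, 3.25 and 4.21 FPKM in SFRP2-siRNA. In contrast to Ccne1, its one high library was SFRP2-siRNA 3, and its log2 fold change of 0.10 (SE 0.13) was the smallest in S phase and turned to -0.02 with median-of-ratios scaling. The ratio of Ccne1 to Ccne2 was 1.17 to 1.31 in NC and 1.86, 1.48 and 1.04 in SFRP2-siRNA 1, 2 and 3.

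Among the G2/M genes, CDK1 and its cyclins drive entry into mitosis. Cdk1 (ENSMUSG00000019942), the mitotic kinase, had 6.75, 5.62 and 7.74 FPKM in NC and 9.43, 8.34 and 9.23 FPKM in SFRP2-siRNA. All 3 libraries labelled SFRP2-siRNA exceeded all NC libraries, and the log2 fold change was 0.38 (SE 0.14, adjusted p = 0.518, limma), with the smallest unadjusted p of the 40 genes. Ccnb1 (ENSMUSG00000041431), cyclin B1, had 7.72, 7.10 and 10.2 FPKM in NC and 9.83, 9.88 and 12.3 FPKM in SFRP2-siRNA. NC 3 lay above 2 of the 3 libraries labelled SFRP2-siRNA, at a log2 fold change of 0.33 (SE 0.17). Ccnb2, cyclin B2, was higher than Ccnb1 in every library (1.66 to 2.28 times), and its groups did not overlap (16.02 ± 2.24 against 19.5 ± 1.33 FPKM; SD, n = 3 each). Ccna2, cyclin A2, had 9.74 ± 1.46 and 11.9 ± 2.36 FPKM with overlapping groups.

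The chromosomal passenger complex, which corrects wrong attachments of chromosomes to the spindle, had the highest median log2 fold change of the role groups with 3 or more genes, 0.38. Aurkb (ENSMUSG00000020897), its kinase, had 7.36, 6.34 and 8.07 FPKM in NC and 9.35, 8.77 and 11.6 FPKM in SFRP2-siRNA. The groups did not overlap, and SFRP2-siRNA 3 was furthest out (log2 fold change 0.40, SE 0.15, adjusted p = 0.518, limma). Birc5 (ENSMUSG00000017716), the subunit survivin, had 7.49, 5.43 and 7.41 FPKM in NC and 9.89, 8.31 and 9.04 FPKM in SFRP2-siRNA. Here SFRP2-siRNA 1 was the highest library, with a log2 fold change of 0.38 (SE 0.15, adjusted p = 0.518, limma). Cdca8, borealin, had 5.02 ± 1.12 and 6.12 ± 0.615 FPKM (SD, n = 3 each) and overlapped. The related kinases Aurka, of the spindle poles, and Plk1, the Polo kinase, had log2 fold changes of 0.22 (SE 0.14) and 0.25 (SE 0.15), and the groups did not overlap for Plk1.

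The spindle checkpoint holds back anaphase until all chromosomes are attached. Ttk (ENSMUSG00000038379), the MPS1 kinase at its top, had 1.85, 2.25 and 2.78 FPKM in NC and 3.32, 2.97 and 3.10 FPKM in SFRP2-siRNA. The libraries labelled SFRP2-siRNA lay close together above all NC libraries (log2 fold change 0.34, SE 0.14, adjusted p = 0.518, limma). Bub1b and Bub1, its other members here, had log2 fold changes of 0.36 (SE 0.21) and 0.29 (SE 0.16), with overlapping groups.

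Cdc20 and Ube2c both serve the anaphase-promoting complex, which ends the checkpoint by marking cyclin B for destruction. Ube2c (ENSMUSG00000001403) had 25.1, 11.7 and 17.4 FPKM in NC and 17.6, 16.8 and 19.9 FPKM in SFRP2-siRNA. NC 1 was the highest and NC 2 the lowest of the 6 libraries, the group means were 18.1 ± 6.73 and 18.1 ± 1.597 FPKM (SD, n = 3 each), and the log2 fold change was 0.06 (SE 0.26). It was the only one of the 40 genes with its highest value in an NC library. Its log2 fold change became negative with 3 of the other scalings, -0.10 with median-of-ratios scaling. Cdc20 had 20.2 ± 3.98 and 24.4 ± 3.61 FPKM. The ratio of Cdc20 to Ube2c was 0.853 in NC 1 and 1.24 to 1.41 in the other 5 libraries. In the GENCODE vM21 annotation, exons of Ube2c overlap Tnnc2, fast troponin C, on the opposite strand. Tnnc2 was listed at 0.11 to 0.557 FPKM (4 to 21 reads), with 0.113 FPKM in NC 1, while skeletal muscle markers summed to 3101 to 11420 FPKM. Whether Ube2c and Tnnc2 share reads was not tested.

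Kif20a (ENSMUSG00000003779), a motor of the final cell division, had 3.65, 4.17 and 5.28 FPKM in NC and 5.07, 5.70 and 6.83 FPKM in SFRP2-siRNA. Only NC 3 reached into the other group, and the log2 fold change was 0.36 (SE 0.16). The motors Kif11, which pushes the spindle poles apart, and Kif23, of the cleavage furrow, had log2 fold changes of 0.29 (SE 0.21) and 0.28 (SE 0.15). Cenpe and Cenpf, of the kinetochore, were among the lowest of the 40 genes (2.48 and 1.66 FPKM on average), with log2 fold changes of 0.28 (SE 0.14) and 0.24 (SE 0.15). The spindle assembly genes Nusap1 and Tpx2 had log2 fold changes of 0.28 (SE 0.18) and 0.28 (SE 0.15). The groups overlapped for all of these motor, kinetochore and spindle assembly genes.

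Mki67 (ENSMUSG00000031004) encodes Ki-67, the coat of mitotic chromosomes that is widely stained as a proliferation marker. It had 14.3, 12.8 and 18.0 FPKM in NC and 14.5, 19.2 and 24.95 FPKM in SFRP2-siRNA. SFRP2-siRNA 1 lay within the NC range while SFRP2-siRNA 3 was far above it, and the log2 fold change was 0.34 (SE 0.22). Top2a (ENSMUSG00000020914), the topoisomerase that untangles sister chromosomes, had 9.70, 9.07 and 13.7 FPKM in NC and 11.1, 13.3 and 16.4 FPKM in SFRP2-siRNA. NC 3 exceeded 2 of the libraries labelled SFRP2-siRNA, at a log2 fold change of 0.31 (SE 0.20). Its ratio to Mki67 stayed between 0.656 and 0.764 in all 6 libraries, and the order of the libraries was the same for both genes but for NC 3 and SFRP2-siRNA 2, which changed places. Foxm1 (ENSMUSG00000001517), the transcription factor that activates many G2/M genes, had 5.39, 4.42 and 6.12 FPKM in NC and 5.81, 6.54 and 7.83 FPKM in SFRP2-siRNA. Its SD around the G2/M score was 0.04 over the 6 libraries, and it overlapped between the groups, with a log2 fold change of 0.29 (SE 0.16).

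**Figure D2:**
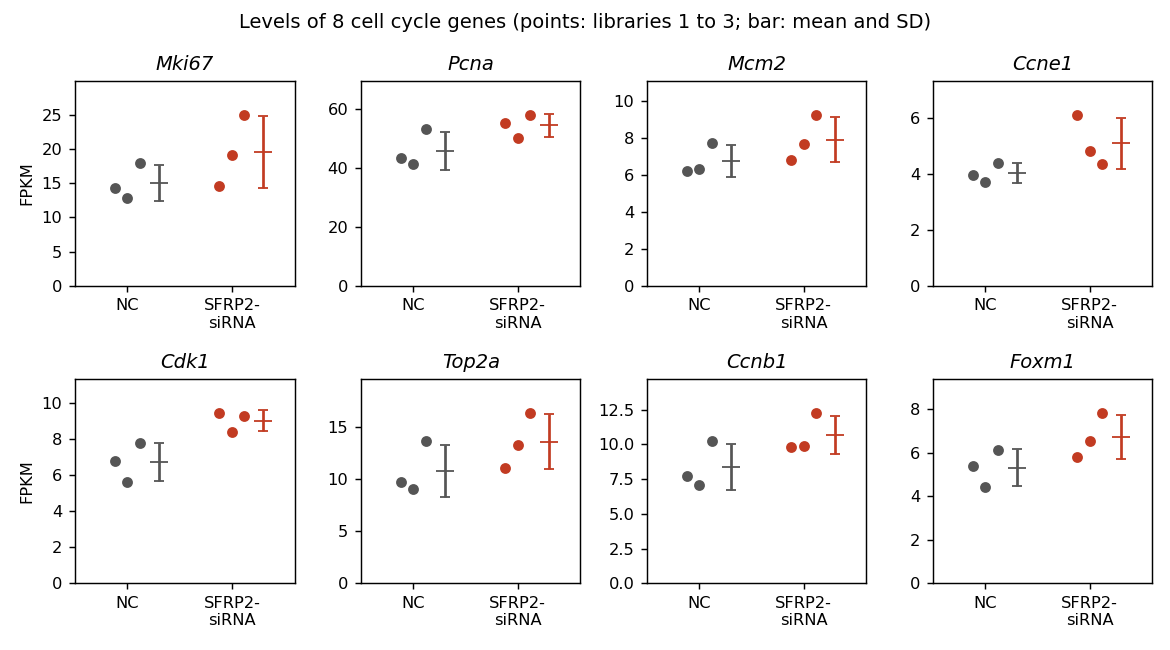
Points are FPKM of 8 genes in libraries 1 to 3 of each group, from left to right, and the bar is the mean with its SD (n = 3), on axes that start at 0. Cdk1 is the panel in which every library labelled SFRP2-siRNA (8.34 to 9.43 FPKM) lies above every NC library (5.62 to 7.74 FPKM), while the spread among the libraries labelled SFRP2-siRNA is wide for Mki67 (14.5 to 24.95 FPKM).

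**Figure D3:**
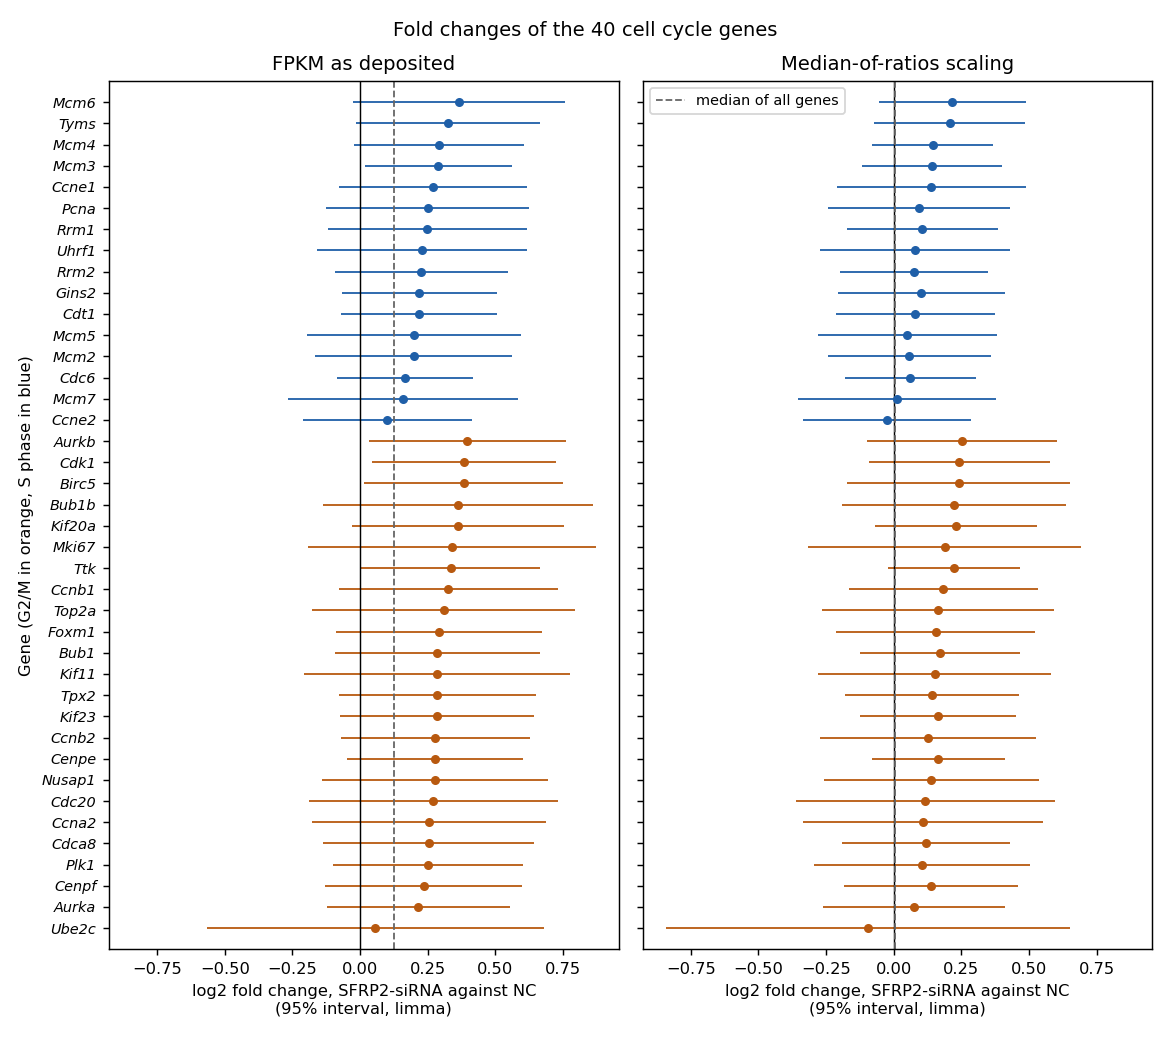
Points are limma log2 fold changes of the 40 genes (SFRP2-siRNA against NC) with their confidence intervals, for FPKM as deposited and after median-of-ratios scaling, and the dashed line is the median of all genes tested. As deposited, all 40 points lie above 0 and the median of all genes is at 0.13, and after scaling 38 points lie above 0 with that median at 0.005.

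The S phase and G2/M genes were then set against each other over the 6 libraries. A score was taken for each class and library as the mean, over its genes, of log2(FPKM + 1) minus the mean of the gene. The S phase score was -0.19, -0.19 and 0.03 in NC 1, 2 and 3 and 0.07, 0.10 and 0.19 in SFRP2-siRNA 1, 2 and 3. The G2/M score was -0.17, -0.32 and 0.06 in NC and 0.03, 0.09 and 0.31 in SFRP2-siRNA. For both classes NC 1 and NC 2 were low and SFRP2-siRNA 3 was high, and the order of NC 1 and NC 2 was close in S phase and apart in G2/M. The groups did not overlap in the S phase score, whereas NC 3 lay above SFRP2-siRNA 1 in the G2/M score. The difference between group means was 0.23 for S phase and 0.29 for G2/M, and the median log2 fold changes were 0.23 and 0.28, above the median of all genes (0.13).

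The S phase score minus the G2/M score was -0.02, 0.13 and -0.03 in NC and 0.03, 0.01 and -0.12 in SFRP2-siRNA. The means differed by -0.06, less than the SD within either group (0.09 and 0.08, n = 3 each), and the groups overlapped. A shift of S phase against G2/M genes between the groups was thus not detectable over the spread of these libraries. NC 2 had the largest excess of S phase over G2/M, and SFRP2-siRNA 3 the largest excess of G2/M over S phase. Without NC 2 the difference was -0.004, and without SFRP2-siRNA 3 it was -0.01.

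**Figure D4:**
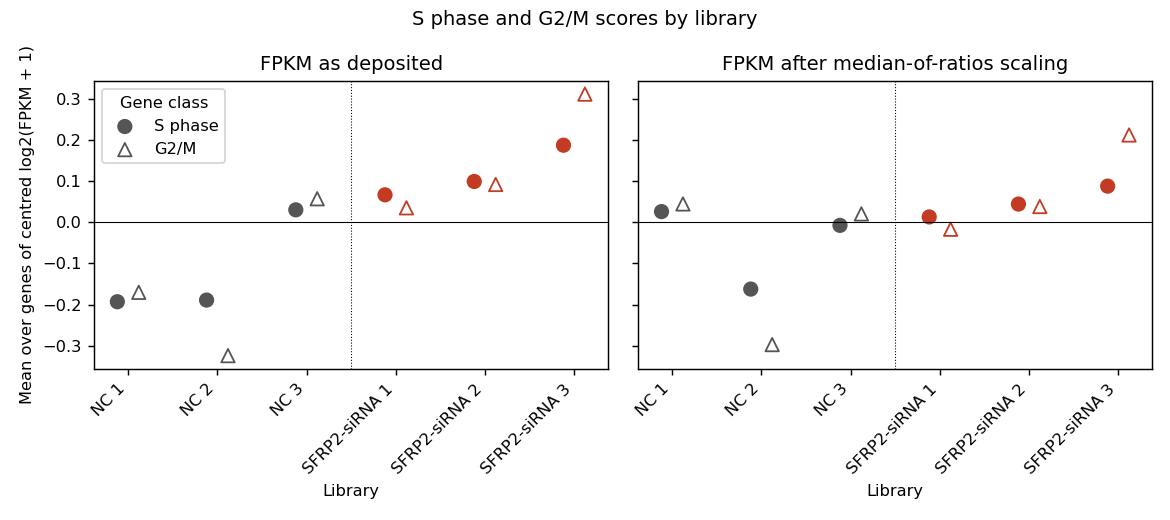
Each point is the mean over the 16 S phase genes (circles) or 24 G2/M genes (triangles) of centred log2(FPKM + 1) in a library, grey for NC and red for SFRP2-siRNA, with FPKM as deposited on the left and after median-of-ratios scaling on the right. NC 1 moves from -0.19 to 0.03 in S phase with the scaling, and after scaling NC 2 is the lowest and SFRP2-siRNA 3 the highest library in both classes.

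The ranks of libraries gene by gene describe the same values as the scores, so they are not a separate result. SFRP2-siRNA 3 was the highest of the 6 libraries for 30 of 40 genes (11 of 16 in S phase, 19 of 24 in G2/M), against 29.5% of all genes. SFRP2-siRNA 1 was highest for 7 genes (27.9% of all genes), SFRP2-siRNA 2 for 2 (11.3%) and NC 1 for 1, Ube2c (10.2%). NC 2 was the lowest for 25 of 40 genes (14.3% of all genes), 17 of them G2/M, and NC 1 for the other 15 (46.9% of all genes). Within the NC group, NC 3 was the highest for 34 of 40 genes, against 48.7% of all genes.

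The places of NC 1, the library with the largest mitochondrial share, and of NC 2 depended on the scaling. When each library was scaled to the same FPKM sum, NC 2 was the lowest for 7 of 40 genes, all G2/M (6.18% of all genes). With median-of-ratios scaling, the S phase score was 0.03, -0.16 and -0.01 in NC and 0.01, 0.04 and 0.09 in SFRP2-siRNA, and the G2/M score was 0.04, -0.30 and 0.02 against -0.02, 0.04 and 0.21. NC 1 was no longer low, and both classes overlapped between the groups. The median log2 fold change was then 0.09 for S phase and 0.16 for G2/M, and 38 of 40 genes were above 0, against 51% of all genes. Only 3 genes were then higher in SFRP2-siRNA without overlap (5.54% of all genes). SFRP2-siRNA 3 was still the highest library for 24 of 40 genes (18.1% of all genes), and NC 2 the lowest for 33 of 40 (14.8% of all genes).

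Single genes also deviated from the score of their class. The largest deviation from a class score was Ube2c in NC 1, which was 0.66 above the G2/M score on the log2 scale. Next came Ccne1 in SFRP2-siRNA 1, 0.30 above the S phase score, and Birc5 in the same library, 0.27 above the G2/M score. Tpx2 followed its class most closely, with an SD of 0.03 around the G2/M score over the 6 libraries. Of 12 genes whose exons overlap those of another gene in GENCODE vM21, 10 overlap on the opposite strand, and the strand setting of the counting is not given in the sources used here. Among them, Cdc20 overlaps Elovl1 (40.3 FPKM) and Mcm7 overlaps Cops6 (31.3 FPKM), so part of their reads may be shared and their values are uncertain. Ube2c, which overlaps Tnnc2, is also among these 10 genes, as are Ccna2, Ccne2, Cdca8, Gins2, Kif20a, Nusap1 and Plk1. Of these, Ccne2 overlaps Ints8 (3.42 FPKM), Gins2 overlaps Gse1 (2.45 FPKM) and Kif20a overlaps Cdc23 (4.16 FPKM). The values of all these genes are uncertain in the same way.

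Other genes of the cell cycle, listed by function and holding none of the 40 genes, were compared in the same fit. All values and counts for these lists are from FPKM as deposited and were not repeated with other scalings. For the 40 genes, the count without overlap fell from 12 (13.9% of all genes) to 3 (5.54%) with median-of-ratios scaling. For origin licensing and the replication fork, 42 of 42 genes had a log2 fold change above 0 (median 0.24), against 71.8% of all genes, and 19 of 42 were higher in SFRP2-siRNA without overlap, against 13.9% of all genes. Cdc7, the kinase that fires origins, had 3.50, 3.27 and 3.77 FPKM in NC and 5.02, 5.03 and 5.31 FPKM in SFRP2-siRNA, the clearest separation on that list (log2 fold change 0.44, SE 0.11, adjusted p = 0.518, limma). Mcm10, which helps start the fork, and Rfc5, of the clamp loader, had log2 fold changes of 0.30 (SE 0.12) and 0.35 (SE 0.13), also without overlap. Of 27 kinetochore and checkpoint genes tested, 26 were above 0 (median 0.24; 71.8% of all genes), and 13 were higher without overlap (13.9% of all genes). The 3 with the smallest p were Spc24, of the NDC80 complex, at a log2 fold change of 0.37 (SE 0.14), the centromere gene Cenpt at 0.31 (SE 0.12) and the centromeric histone Cenpa at 0.34 (SE 0.14). Of 44 spindle, condensin and cytokinesis genes, 43 were above 0 (median 0.29; 71.8% of all genes), and 15 were higher without overlap (13.9% of all genes), among them Cdc25b, the phosphatase that activates CDK1 (9.15 ± 1.15 against 12.5 ± 1.49 FPKM; SD, n = 3 each). Arhgap11a and Ckap2l of the same list had log2 fold changes of 0.44 (SE 0.15) and 0.36 (SE 0.13).

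Lists further from the core of replication and mitosis were more mixed. Nucleotide supply had 17 of 21 genes above 0, against 71.8% of all genes (median 0.14, near the 0.13 of all genes). Its genes with the smallest p were Mthfd2, the mitochondrial folate enzyme, at a log2 fold change of 0.43 (SE 0.14), Samhd1, which degrades dNTPs, at 0.75 (SE 0.29) and Ppat, of purine synthesis, at 0.30 (SE 0.14). For G1 cyclins and CDKs, 8 of 9 genes were above 0 (median 0.16), against 71.8% of all genes. None of them had an unadjusted p under 0.05 with limma, and Cdk7, Cdk2 and Cdk6 had log2 fold changes of 0.27, 0.24 and 0.20. Among E2F, RB and DREAM genes, 16 of 18 were above 0 (median 0.13), against 71.8% of all genes. E2f1, an activator of S phase genes, had 5.38 ± 0.889 FPKM in NC and 7.24 ± 0.888 FPKM in SFRP2-siRNA (SD, n = 3 each). Rbl1, the pocket protein p107, and Tfdp1, the partner of E2F factors, had log2 fold changes of 0.36 (SE 0.12) and 0.32 (SE 0.17).

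CDK inhibitors and p53 targets, which restrain the cycle, had the widest spread, from -0.52 for Phlda3, a p53 target, to 0.86 for Gadd45a, a stress gene that inhibits CDK1. Of 16 genes tested, 12 were above 0 (median 0.19), near the share of all genes (71.8%). Gadd45a had 10.5, 8.99 and 11.3 FPKM in NC and 17.5, 23.8 and 17.3 FPKM in SFRP2-siRNA. The groups did not overlap, and it had the smallest unadjusted p on the lists of cell cycle genes (log2 fold change 0.86, SE 0.17, adjusted p = 0.518, limma). Cdkn1c, the inhibitor p57, had 4.78, 3.80 and 6.14 FPKM in NC and 6.94, 7.54 and 15.1 FPKM in SFRP2-siRNA, with the highest value in SFRP2-siRNA 3 (log2 fold change 0.82, SE 0.30). Cdkn2d, the inhibitor p19, had 9.18 ± 0.541 and 12.5 ± 1.94 FPKM (SD, n = 3 each). No gene on these 7 lists passed the adjusted threshold with limma. Of their 177 genes tested, 24 were higher in SFRP2-siRNA at an unadjusted p under 0.05 and 1 was lower, against 6.72% and 2.86% of all genes.

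**Figure D5:**
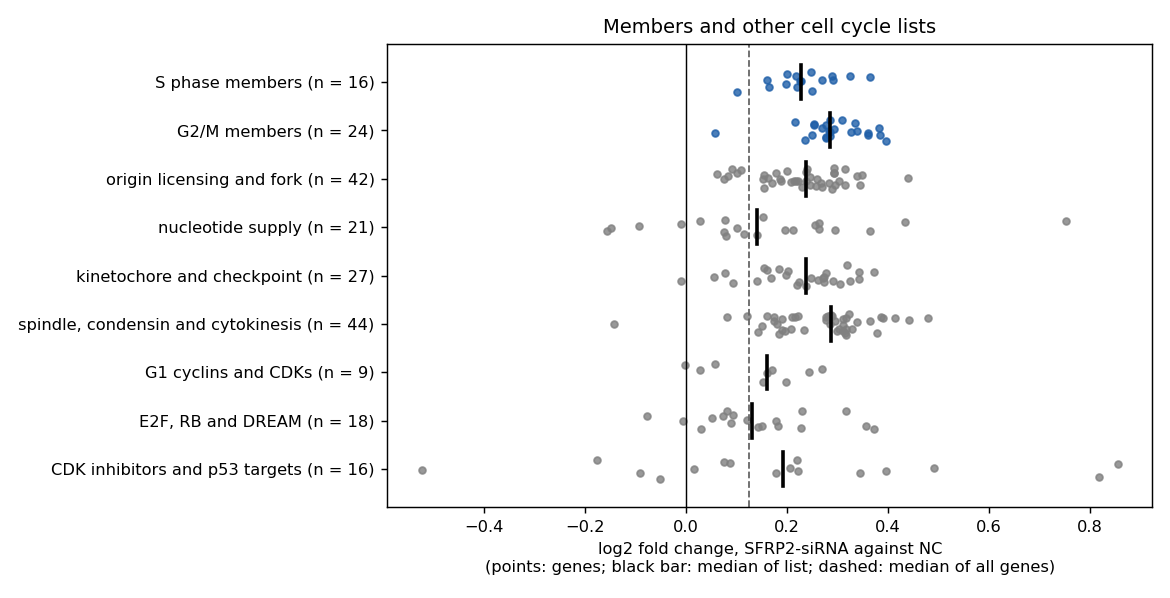
Points are limma log2 fold changes (SFRP2-siRNA against NC, FPKM as deposited) of the genes in each list. The black bar is the median of the list and the dashed line is the median of all genes tested (0.13). The S phase and G2/M genes and the lists of licensing, kinetochore and spindle genes have medians of 0.23 to 0.29, and the CDK inhibitors and p53 targets spread from -0.52 to 0.86.

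Markers of the cell types in the tissue moved between the libraries as well. The summed level of 8 fibroblast markers was 899 to 2033 FPKM in NC and 2221 to 2304 FPKM in SFRP2-siRNA, with 8 of 8 genes higher in the mean. For 7 macrophage markers it was 695 to 1130 FPKM in NC and 1259 to 1816 FPKM in SFRP2-siRNA, with 7 of 7 higher. Of all genes tested, 71.8% had a log2 fold change above 0. The sums of the other 9 marker lists overlapped between the groups. All these sums are of FPKM as deposited. Median-of-ratios scaling divides NC 2 by 0.986 and SFRP2-siRNA 3 by 1.09. The fibroblast groups then overlap, and the gap between the macrophage groups is narrower. Basal keratinocyte markers, a main dividing population of skin, overlapped, at 2828 to 5205 FPKM in NC and 3209 to 6321 FPKM in SFRP2-siRNA, and were lowest of their group in SFRP2-siRNA 3 (3209 FPKM), the library with the highest cell cycle scores. Hair matrix and inner root sheath markers summed to 24.5 FPKM in SFRP2-siRNA 1 and to 2474 to 5418 FPKM in the other 5 libraries, while the S phase and G2/M scores of SFRP2-siRNA 1 were 0.07 and 0.03. Skeletal muscle markers were highest in SFRP2-siRNA 3 (11420 FPKM, against 3101 to 6085 FPKM in the other 5). Neutrophil markers summed to 4621, 5552 and 990 FPKM in SFRP2-siRNA 1, 2 and 3, and to 1141 to 1770 FPKM in NC. Adipocyte markers were lowest in SFRP2-siRNA 3 (782 FPKM, against 1160 to 2103 FPKM in the other 5). No marker was at 0 in all libraries. The part of these cell types in the levels of the cell cycle genes was not tested.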

How the data were processed

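RNA-seq of wound tissues was compared between 3 libraries labelled NC and 3 labelled SFRP2-siRNA, grouped by their titles. Paired-end libraries of mRNA were made by the authors, and 1 table of FPKM values was deposited. The submitters' processing notes name HISAT2, featureCounts and Subread, and versions, genome build, annotation and strand setting are not given in the sources used here. For their own comparison the authors used DESeq2, which FPKM values cannot enter, so their thresholds were applied with limma 3.58.1 in R 4.3.3. A gene name table gave symbols for 32582 of 33184 gene IDs.

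Values were analysed as log2(FPKM + 1), a scale that understates the change of low genes, for the 16005 genes that averaged 0.5 FPKM or more. The test was lmFit with eBayes and an intensity trend, two-sided, with Benjamini-Hochberg adjustment over all of these genes. Single genes were also compared by an exact two-sided permutation test. Gene lengths from GENCODE vM21 turned the FPKM of 97.2% of the genes tested into whole reads within a tolerance of 0.05 reads. The 40 genes held 366 to 11829 reads in a library, which limits counting error, and 64.6% of values of 1 to 20 reads were even, so mates were counted singly. The fragments behind these reads are thus fewer than the reads. Counting error is covered only in part, since reads carry no molecular identifiers. Limma voom was run on these reads. On simulated data for this comparison, limma recovered 87.1% of 200 genes with a log2 change of 2, and 42.4% with a log2 change of 1, among 16005 genes. Recovery was counted at an adjusted p under 0.05 with no fold limit, so it is not the recovery under the full threshold. Noise was drawn for each gene on its own, so shifts shared by many genes of a library were not simulated. No 2 libraries of a group agreed within counting noise.

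The 40 genes, the 7 other cell cycle lists and the marker lists were chosen with earlier results of these data known. Values in every library are given for 8 genes picked by name, for the 5 genes of each class with the smallest p, and for the genes with the highest and lowest fold change of each class, and for the other lists the 3 genes with the smallest p are named. Phlda3 was named after its value was seen. Alternatives were a pseudocount of 0.1, no filter or one at 2 FPKM, 4 other scalings, no trend, sample weights, the replicate number as a block and leaving out each library. In 1 scaling, 23 genes that held over 0.5% of the FPKM sum were set aside. Voom and the subtraction of the median of all genes were added after the data were seen. Of the listed genes, Lin54 was not matched in the table.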

Additional observations from a re-analysis of the deposited data

How the results depend on the processing

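No alternative gave any of the 40 genes an adjusted p under 0.05 with an absolute log2 fold change above 1. The G2/M median log2 fold change lay between 0.16 and 0.40 over the alternatives, and 38 to 40 genes were above 0. With median-of-ratios scaling, the S phase median was 0.087, 3 genes showed no overlap (5.54% of all genes), 0 genes had an unadjusted p under 0.05 with limma (2.74%), Ccne2 turned to -0.024 and Ube2c to -0.095. With quantile normalization the same values were 0.125, 4 (6.12% of all genes), 0 (2.96%), -0.015 and -0.026. With voom and median-of-ratios library sizes the S phase median was 0.105, and 0 genes had an unadjusted p under 0.05 (2.68%). Ccne2 and Ube2c were then at -0.018 and -0.083. When sums were equalised after setting the most abundant genes aside, 6 genes did not overlap (4.92% of all genes), 0 had an unadjusted p under 0.05 (2.68%) and Ube2c was at -0.040. The count at an unadjusted p under 0.05 was 3 with equal sums (6.17% of all genes in the higher direction) and 9 with sample weights (8.85%). Subtraction of the median of all genes gave an S phase median of 0.102. With a library left out, the count without overlap lay between 12 and 36, while the share of all genes ran from 15.7% to 29%. The count at an unadjusted p under 0.05 lay between 0 and 11, while the share of all genes in the higher direction ran from 2.87% to 9.78%. The log2 fold change of Ube2c lay between -0.205 and 0.314. The cause was not tested. The other 315 fits of the named genes turned no direction. That no call changed carries no weight, since the largest log2 fold change in any fit was 0.525 (Mki67), below the limit of 1. Unadjusted p-values did move, as the counts above show. With the replicate number as a block, 12 genes had an unadjusted p under 0.05 (7.84% of all genes in the higher direction), and their smallest adjusted p was 0.384 with limma. Deviations of same-numbered libraries correlated at -0.05, -0.15 and 0.38. Other pairs were not compared and no label states a pairing, so whether the numbers pair the libraries cannot be told. Differences under 0.5 on the log2 scale, as for these genes, are smaller than the fold sizes tried on simulated data.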
